A study of Mus musculus with 6 samples.

Results

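The genes that hydroxylate, chaperone and crosslink collagen were followed in primary mouse hepatic stellate cells after a pulse of forskolin, a plant compound that switches on adenylyl cyclase and thereby cyclic AMP signalling. They are the prolyl 4-hydroxylase genes P4ha1 and P4ha2, the lysyl hydroxylase genes Plod1 and Plod2, the collagen chaperone gene Serpinh1, and the lysyl oxidase genes Lox, Loxl1, Loxl2, Loxl3 and Loxl4. They were taken by gene symbol, 10 of the 24940 rows of the deposited exon count table. Hepatic stellate cells are liver pericytes that store vitamin A, and they become the main producers of fibrillar collagen there in fibrosis. The cells came from wild-type (wt) female C57BL/6JBomTac mice, per the labels. The Fsk group received 5 µM forskolin on day 2 after isolation. The Ctrl group received the vehicle dimethyl sulfoxide (DMSO) at 1:1000. In both groups the medium was replaced after 3 h and RNA was taken 21 h later, so at 24 h. Each group had 3 libraries, lettered A, B and C. Whether the libraries of a group stem from separate animals or cultures is not in the labels, so the p-values reflect library-to-library spread that could be purely technical.

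A collagen chain is modified before it leaves the endoplasmic reticulum. Prolyl 4-hydroxylase makes the hydroxyproline that keeps the triple helix stable at body temperature, and lysyl hydroxylases make hydroxylysine, which carries sugars and shapes the later crosslinks. The chaperone HSP47, the product of Serpinh1, binds the folded helix and leaves it on the way to the Golgi. Outside the cell, the copper-dependent lysyl oxidases turn lysines and hydroxylysines into aldehydes that join collagen and elastin molecules covalently. In liver fibrosis these crosslinks stiffen the scar and make it harder to degrade. The hydroxylases need iron, oxygen, 2-oxoglutarate and ascorbate, and several of these genes are known as targets of hypoxia-inducible factors.

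Total counts ranged from 10890193 to 12954310 in the Fsk libraries and from 13001358 to 15090262.5 in the Ctrl libraries, so every Fsk library was the shallower. Across genes, log2 CPM (the count scaled to library size) had a Pearson correlation of 0.989 to 0.995 for libraries of the same group and of 0.961 to 0.965 across the groups, though genes are no independent replicates. Of the stellate cell markers all 8 of 8 were tested, and their summed level was 2102 to 2130 CPM in Fsk and 1932 to 2097 CPM in Ctrl libraries, with 4 that rose and 2 that fell. The 5 hepatocyte markers together stayed at or under 0.227 CPM in Fsk and 0.268 CPM in Ctrl libraries, with Serpina1a at 0 in all 6. The 6 macrophage markers summed to 37.8 to 39.0 CPM in Fsk and 34.3 to 36.6 CPM in Ctrl libraries. Among them Cd68 and Csf1r rose by 0.50 and by 0.47 on the log2 scale, and Lyz2 fell to 4.23 CPM in Fsk, against 10.8 CPM in Ctrl, while Clec4f was at 0 in all Fsk libraries and averaged 0.0262 CPM in Ctrl. The 6 sinusoidal endothelial markers summed to 8.46 to 9.53 CPM in Fsk and 11.9 to 13.7 CPM in Ctrl libraries, with Pecam1 at 0.397 CPM in Fsk and 0.379 CPM in Ctrl. Of the 4 tested, Stab2 rose to 2.50 CPM in Fsk, against 0.978 CPM in Ctrl, while Kdr, Lyve1 and Tek fell by 1.54, by 0.63 and by 0.74 on the log2 scale. The 4 cholangiocyte markers summed to 35.0 to 44.4 CPM in Fsk and 68.5 to 77.4 CPM in Ctrl libraries, almost all of it Krt19, which fell to 35.1 CPM in Fsk, against 71.3 CPM in Ctrl. Sox9 rose to 3.48 CPM in Fsk, against 1.53 CPM in Ctrl, and Krt7 was at 0 in Fsk and 0.116 CPM in Ctrl. The 6 markers of mesothelium and portal fibroblasts summed to 8.69 to 11.01 CPM in Fsk and 5.98 to 8.56 CPM in Ctrl libraries. Of these Thy1 rose to 4.93 CPM in Fsk, against 0.650 CPM in Ctrl, and the other 3 tested did not pass. The 4 vascular smooth muscle markers, which activated stellate cells also express, summed to 688 to 755 CPM in Fsk and 826 to 839 CPM in Ctrl libraries, and 4 of 4 fell. The part of these shifts in the results below was not tested.

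Of the 10 genes, 6 fell with forskolin, 0 rose and 4 did not pass the test (edgeR quasi-likelihood test, Benjamini-Hochberg adjusted p under 0.05 over 13357 genes). Over all genes tested, 25.1% fell and 24.8% rose, together 49.9%, so a call by itself was common in these libraries. Scaled by library size alone, 58.1% of the calls were higher in Fsk, against 49.8% with TMM. Lox and Loxl4 fell at least 2-fold, as did 3.71% of all genes tested. The remaining falls, of P4ha1, P4ha2, Plod2 and Loxl3, were smaller. The median log2 fold change of the 10 genes was -0.29, against 0.01 over all genes tested. For 7 of the 10 the 2 groups did not overlap, against 57.2% of all genes tested, which is close to the background. As these are bulk libraries, fewer cells of a type and less RNA per cell cannot be told apart.

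**Figure D1:**
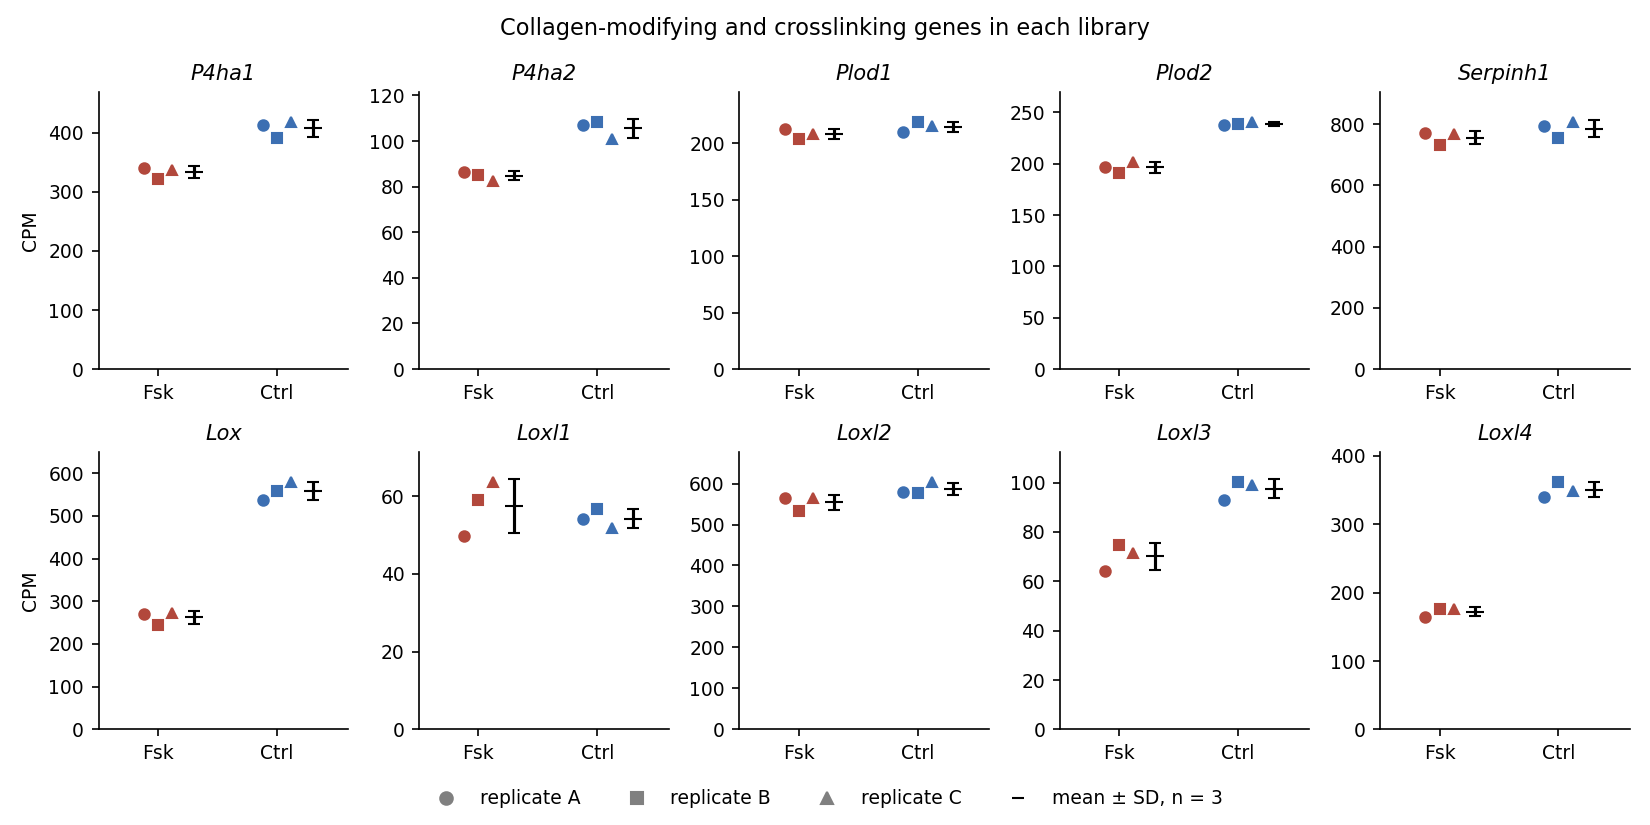
CPM of each gene in each library, Fsk left of Ctrl, with the vertical axis starting at 0 in every panel. Symbols mark the replicate letters, and the bar beside each group is the mean ± SD over 3 libraries. Lox and Loxl4 show the widest gap between groups, while Plod1, Serpinh1 and Loxl1 overlap.

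The catalytic subunits of prolyl 4-hydroxylase fell together and by nearly the same proportion. P4ha1, the main catalytic subunit in most tissues (mm10 chromosome 10, 59323296 to 59373304, plus strand), had 341, 322 and 338 CPM in Fsk A, B and C, against 414, 392 and 419 CPM in Ctrl A, B and C. Every Fsk library lay below every Ctrl library. Its mean was 334 ± 10.3 CPM in Fsk and 408 ± 14.4 CPM in Ctrl (SD, n = 3 each), a log2 fold change of -0.29 (SE 0.0424, 95% interval -0.38 to -0.20, edgeR adjusted p = 1.61e-05). P4ha2, a second catalytic subunit prominent in cartilage (chromosome 11, 54100924 to 54131667, plus strand), had 86.5, 85.1 and 82.7 CPM in Fsk libraries, against 107, 109 and 101 CPM in Ctrl libraries. Again no Fsk library reached a Ctrl value. The means were 84.7 ± 1.92 CPM in Fsk and 106 ± 3.97 CPM in Ctrl, a log2 fold change of -0.32 (SE 0.0492, 95% interval -0.42 to -0.21, edgeR adjusted p = 3.17e-05).

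Since P4ha1 and P4ha2 moved together, their promoter windows are shown, with that of Loxl4, the gene with the largest fall among the 5 whose windows were used. The windows run from 250 bases before to 50 bases after the start of the gene, from RefSeq on GRCm38.p6, the build also called mm10, and are read along the gene's strand. Windows were found for 5 of the 10 genes (Plod1, Serpinh1, P4ha1, P4ha2 and Loxl4). Capitals mark matches, on either strand, to the short TGACG form of the cyclic AMP response element and to the cores of the hypoxia response element (ACGTG and GCGTG). P4ha1 lies at chr10:59323046-59323345 (plus strand), P4ha2 at chr11:54100674-54100973 (plus strand) and Loxl4 at chr19:42612757-42613056 (minus strand).
P4ha1: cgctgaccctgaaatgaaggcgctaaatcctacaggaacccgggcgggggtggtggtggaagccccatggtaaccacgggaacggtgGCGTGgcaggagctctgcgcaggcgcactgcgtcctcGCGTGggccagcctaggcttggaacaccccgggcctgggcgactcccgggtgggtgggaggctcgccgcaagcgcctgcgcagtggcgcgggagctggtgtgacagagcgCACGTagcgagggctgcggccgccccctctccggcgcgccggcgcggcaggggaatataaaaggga
P4ha2: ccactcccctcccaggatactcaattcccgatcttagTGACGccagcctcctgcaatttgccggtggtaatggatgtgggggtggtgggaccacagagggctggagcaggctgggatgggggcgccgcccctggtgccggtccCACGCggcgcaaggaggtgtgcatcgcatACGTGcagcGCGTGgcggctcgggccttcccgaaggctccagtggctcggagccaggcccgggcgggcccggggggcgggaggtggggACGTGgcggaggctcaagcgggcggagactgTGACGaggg
Loxl4: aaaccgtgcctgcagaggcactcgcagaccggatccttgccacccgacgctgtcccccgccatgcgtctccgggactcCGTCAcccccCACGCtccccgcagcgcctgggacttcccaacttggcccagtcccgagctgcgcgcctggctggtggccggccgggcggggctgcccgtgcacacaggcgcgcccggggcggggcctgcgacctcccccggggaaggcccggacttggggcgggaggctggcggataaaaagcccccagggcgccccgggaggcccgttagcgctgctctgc
The full cyclic AMP response element TGACGTCA occurred in 0 of the 5 windows, against 1.79% of 32851 windows of the same length. The short form TGACG, which the full element contains, occurred in 2 of the 5, against 20.8% of all windows. P4ha2 held it at positions -213 and 42 from the start, and Loxl4 at -172 on the opposite strand. The core ACGTG was in 3 of the 5 windows (19.6% of all) and GCGTG in 4 of the 5 (32.4% of all). In P4ha2 a pair of these cores stood near each other at -78 and -69, with further ones at -107 and 11. P4ha1 held them at -163, -126 and -16, and Loxl4 at -162. Windows of genes that did not pass the test also held them, Plod1 at -20 and 15 and Serpinh1 at -171. The motif GGAATG, bound by TEAD factors, was in 0 of the 5 (14.7% of all windows). The GC content was 75.0% for Loxl4, 70.3% each for P4ha1 and P4ha2, 64.3% for Plod1 and 62.3% for Serpinh1, against a median of 52.7% over all windows. Every marked motif contains CG, and the 5 windows held 16 to 32 CG dinucleotides each, against a median of 7 over all windows. The shares over all windows are thus not matched for CG content. A match describes the letters of a window and is not a bound site.

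Of the lysyl hydroxylase genes Plod2 fell and Plod1 did not pass the test. Plod2, whose product hydroxylates the lysines of the collagen telopeptides and so sets the type of crosslink (chromosome 9, 92542223 to 92608427, plus strand), had 197, 191 and 202 CPM in Fsk libraries, against 237, 239 and 241 CPM in Ctrl libraries. The groups lay apart, with the Ctrl libraries tightly together. It averaged 197 ± 5.47 CPM in Fsk and 239 ± 1.87 CPM in Ctrl, a log2 fold change of -0.28 (SE 0.0407, 95% interval -0.37 to -0.20, edgeR adjusted p = 1.43e-05). Plod1, whose product hydroxylates lysines of the helix (chromosome 4, 147909753 to 147936776, minus strand), had 212, 203 and 208 CPM in Fsk libraries, against 210.1, 219 and 215 CPM in Ctrl libraries. Here the groups overlapped, Fsk A lying above Ctrl A. The difference was -0.05 on the log2 scale (95% interval -0.13 to 0.04, edgeR adjusted p = 0.359). With library size alone as scaling it was -0.004. The interval reflects library-to-library spread that could be purely technical. Within libraries, the ratio of Plod2 to Plod1, each as CPM per kb of exon, was 0.828 in Fsk and 0.975 in Ctrl, with no overlap. A 2-sided exact permutation test on the log2 ratio gave p = 0.10, the smallest that 3 against 3 libraries allow (0.14 adjusted over 7 ratios).

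Serpinh1, the gene of HSP47 (chromosome 7, 99345375 to 99353239, minus strand), was the most abundant of the 10 per exon length. It had 770.2, 731 and 766 CPM in Fsk libraries, against 792, 754 and 808 CPM in Ctrl libraries. The groups overlapped, Fsk A and C standing above Ctrl B. Its log2 fold change was -0.05 (SE 0.0426, 95% interval -0.14 to 0.04, edgeR adjusted p = 0.308). It ranked at place 26 of 13357 genes by mean CPM per kb.

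**Figure D2:**
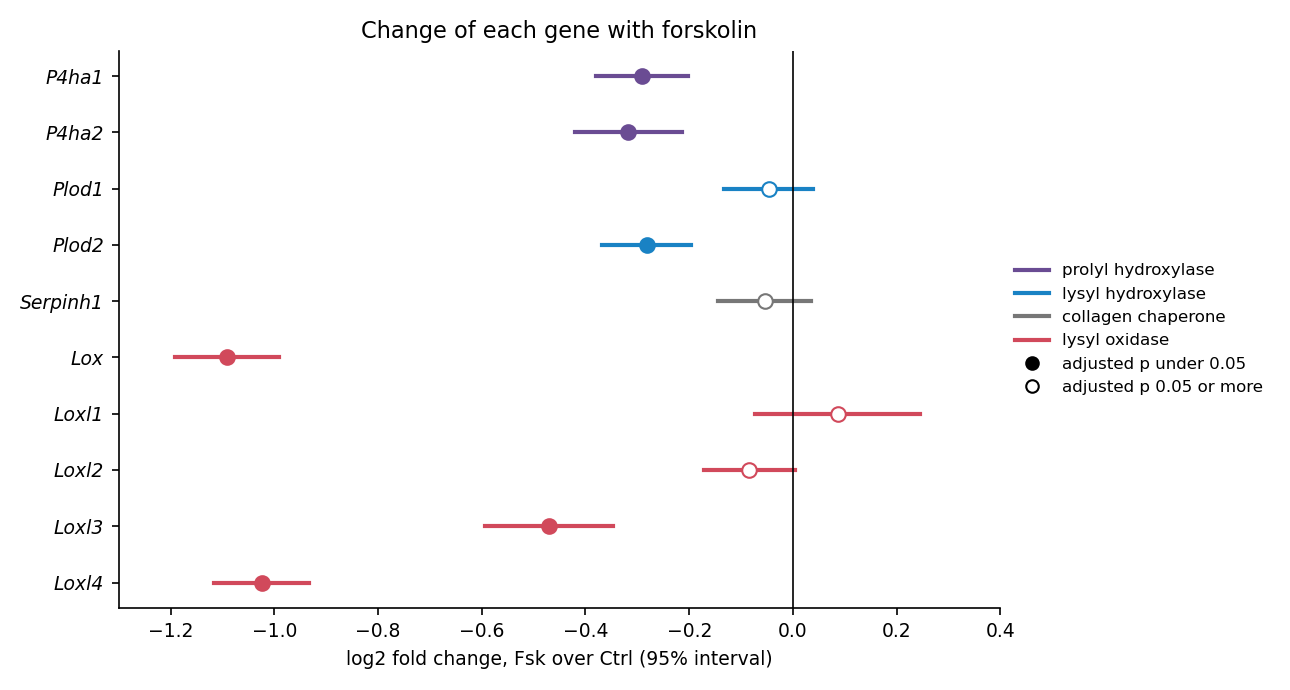
Log2 fold change of each gene, Fsk over Ctrl, as a point with its 95% interval; colours mark the enzyme class and filled points an adjusted p under 0.05. Lox and Loxl4 lie near -1, P4ha1, P4ha2, Plod2 and Loxl3 between -0.28 and -0.47, and the 4 open points have intervals that reach 0.

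Of the 5 lysyl oxidase genes 3 fell, with Lox and Loxl4 losing about the same proportion. Lox, the founding member (chromosome 18, 52516060 to 52529823, minus strand), had 269.6, 245 and 272 CPM in Fsk libraries, against 536, 559 and 579 CPM in Ctrl libraries. The highest Fsk library was thus far below the lowest Ctrl library. Its mean was 262 ± 15.3 CPM in Fsk and 558 ± 21.3 CPM in Ctrl, 2.13-fold lower with forskolin (log2 fold change -1.09, SE 0.0475, 95% interval -1.19 to -0.99, edgeR adjusted p = 1.53e-12). By size of change it stood at place 758 of the 13357 genes.

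Loxl4, a secreted relative with scavenger receptor domains (chromosome 19, 42592279 to 42612806, minus strand), had 165, 176 and 176 CPM in Fsk libraries, against 340.4, 362 and 349 CPM in Ctrl libraries. No Fsk library came near the Ctrl values. The means were 172 ± 6.30 CPM in Fsk and 350.5 ± 10.7 CPM in Ctrl, 2.03-fold lower with forskolin (log2 fold change -1.02, SE 0.0434, 95% interval -1.12 to -0.93, edgeR adjusted p = 1.04e-12). Against a change of at least 1.5-fold in place of no change, Lox and Loxl4 were the 2 of the 10 genes that passed, against 1000 of all genes tested.

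Loxl3, another member with scavenger receptor domains (chromosome 6, 83034224 to 83052564, plus strand), had 64.2, 74.8 and 71.7 CPM in Fsk libraries, against 93.01, 100.2 and 99.1 CPM in Ctrl libraries. The groups were apart, with Fsk A the lowest of all. It averaged 70.2 ± 5.47 CPM in Fsk and 97.4 ± 3.87 CPM in Ctrl, a log2 fold change of -0.47 (SE 0.0586, 95% interval -0.59 to -0.35, edgeR adjusted p = 2.6e-06). Of its exon bases, 535 overlap Htra2 on the opposite strand, and the protocol is not stated to keep strand, so reads of these 2 genes cannot be told apart there. Htra2, a mitochondrial protease gene, averaged 79.1 CPM in Fsk and 93.6 CPM in Ctrl (log2 fold change -0.24, edgeR adjusted p = 0.000937).

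Loxl2 and Loxl1 did not pass the test, although Loxl2 passed with the replicate letter as a block. Loxl2, an oxidase known for its rise in fibrotic liver (chromosome 14, 69609476 to 69695834, plus strand), had 564, 534 and 565 CPM in Fsk libraries, against 580.2, 578 and 604 CPM in Ctrl libraries. The groups did not overlap but lay close, 554 ± 17.8 CPM in Fsk and 587 ± 14.2 CPM in Ctrl (log2 fold change -0.08, 95% interval -0.17 to 0.003, edgeR adjusted p = 0.101). Fitted with library size as a covariate, Loxl2 and Serpinh1 passed, with log2 fold changes of -0.15 and -0.14 (edgeR adjusted p = 0.0256 and 0.0257). The level of Loxl2 itself is uncertain, since 28.3% of its 50-base stretches are found in no other annotated gene and 71.3% are shared with Gm21451, a gene model with no row in the table.

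Loxl1, whose product is needed for elastic fibre renewal (chromosome 9, 58287723 to 58313212, minus strand), had 49.8, 59.0 and 63.6 CPM in Fsk libraries, against 54.2, 56.6 and 51.8 CPM in Ctrl libraries. Fsk A was the lowest of the 6 and Fsk C the highest. Its log2 fold change was 0.09 (SE 0.0754, 95% interval -0.07 to 0.24, edgeR adjusted p = 0.363). Without Fsk A it was 0.18 (edgeR adjusted p = 0.0224), so that library decides the call.

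**Figure D3:**
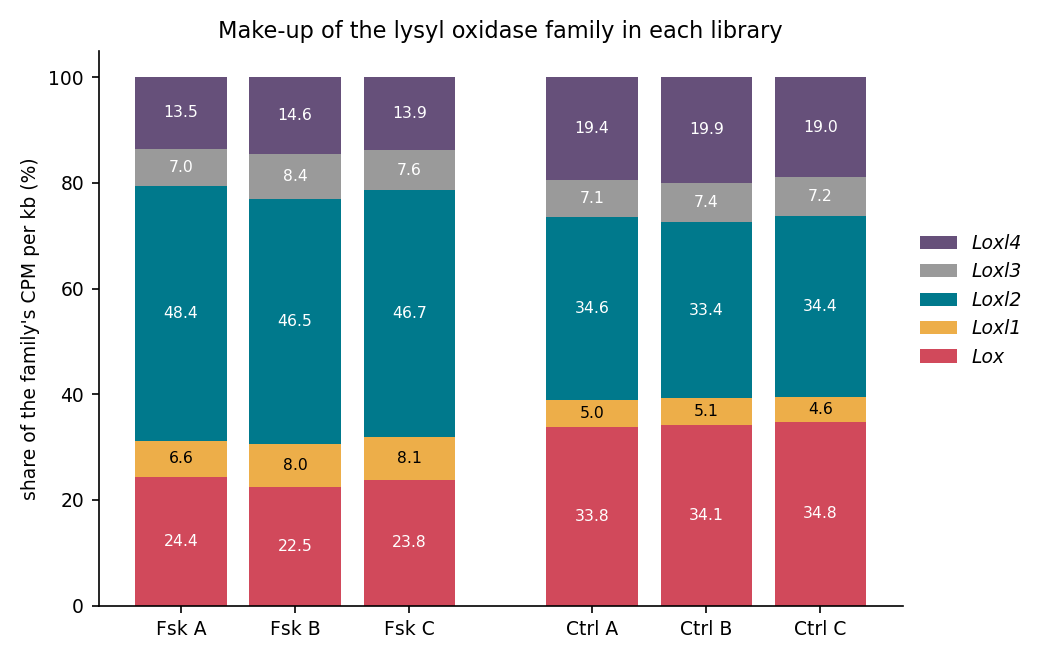
Share of each lysyl oxidase gene in the summed CPM per kb of the 5 genes, in percent, for each library, Fsk left of Ctrl. On average Loxl2 holds 47.2% in Fsk and 34.2% in Ctrl, and Lox 23.6% in Fsk and 34.3% in Ctrl.

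The make-up of the lysyl oxidase family was compared as shares of its summed level. Summed over the 5 genes, the level was 227 ± 6.35 CPM per kb in Fsk and 333 ± 7.97 CPM per kb in Ctrl, a difference of -31.7%. Lox made up 23.6% ± 0.970 of this sum in Fsk and 34.3% ± 0.515 in Ctrl, and Loxl4 13.99% ± 0.571 in Fsk and 19.4% ± 0.489 in Ctrl. Loxl2 held 47.2% ± 1.03 in Fsk and 34.2% ± 0.642 in Ctrl, and Loxl1 7.59% ± 0.832 in Fsk and 4.89% ± 0.275 in Ctrl (SD, n = 3 each). For these 4 genes the groups did not overlap, and 2-sided exact permutation tests gave p = 0.10, the smallest possible (0.125 adjusted over 5 shares). Loxl3 held 7.66% in Fsk and 7.25% in Ctrl, and the groups overlapped (exact permutation p = 0.5). A share can grow while the level of its gene does not, as for Loxl2. The ratio of Loxl2 to Lox was 2.004 in Fsk and 0.997 in Ctrl (exact permutation p = 0.10, 0.14 adjusted over 7 ratios). With Loxl2 left out, a choice made after seeing the data, Lox held 44.7% in Fsk and 52.0% in Ctrl, Loxl4 26.5% in Fsk and 29.5% in Ctrl, Loxl3 14.5% in Fsk and 11.02% in Ctrl, and Loxl1 14.3% in Fsk and 7.43% in Ctrl.

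The order of the 10 genes by CPM per kb moved with Lox and Loxl4. In Fsk it ran Serpinh1 (316), Loxl2 (107), P4ha1 (82.9), Plod1 (64.3), Lox (53.6), Plod2 (53.3), P4ha2 (37.5), Loxl4 (31.8), Loxl3 (17.4) and Loxl1 (17.3). There Lox overlapped with Plod2, and Loxl3 with Loxl1, while the other neighbours did not. In Ctrl it ran Serpinh1 (328), Lox (114), Loxl2 (114), P4ha1 (101), Plod1 (66.4), Plod2 (64.8), Loxl4 (64.7), P4ha2 (46.7), Loxl3 (24.2) and Loxl1 (16.3). There Lox overlapped with Loxl2, Plod1 with Plod2, and Plod2 with Loxl4. These levels, like the family's shares and sum and the ratios, use the deposited exon lengths. That of Loxl4 is 5417 bases, against 3741 exon bases of the gene in the GENCODE annotation of the same build. With that shorter length in its place, the share of Loxl4 and the family's sum would be higher in both groups.

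The enzyme genes were also set against the genes of their collagen substrates. Col1a2, the second chain of type I collagen, fell to 298 ± 16.4 CPM in Fsk, against 477 ± 34.2 CPM in Ctrl (log2 fold change -0.68, edgeR adjusted p = 4.6e-09). Col1a1, the first chain, fell to 1285 ± 40.4 CPM in Fsk, against 1540 ± 39.5 CPM in Ctrl (-0.26, adjusted p = 6.02e-05). Col3a1, the chain of type III collagen, differed little, with 980.3 ± 64.8 CPM in Fsk and 1071 ± 33.4 CPM in Ctrl (-0.13, adjusted p = 0.0365), and lost its call with library size alone as scaling, with library size as a covariate, and without any 1 of Fsk A, Fsk B, Ctrl A, Ctrl B or Ctrl C. Per kb, the ratio of the prolyl hydroxylase genes P4ha1 plus P4ha2 to these 3 collagen genes was 0.265 in Fsk and 0.270 in Ctrl, with overlap (exact permutation p = 0.7). The ratio of Plod1 plus Plod2 to collagen was 0.259 in Fsk and 0.239 in Ctrl, and that of Serpinh1 0.696 in Fsk and 0.598 in Ctrl, both higher in every Fsk library. The ratio of the lysyl oxidase family to collagen was 0.501 in Fsk and 0.607 in Ctrl, lower in every Fsk library. These 3 ratios had exact permutation p = 0.10 (0.14 adjusted over 7 ratios). With Loxl2 left out, the family to collagen ratio was 0.264 in Fsk and 0.3997 in Ctrl, a log2 difference of -0.60 in place of -0.28, and the summed level 120 CPM per kb in Fsk and 219 CPM per kb in Ctrl. The ratio of P4ha2 to P4ha1 was 0.453 in Fsk and 0.461 in Ctrl, with overlap (exact permutation p = 0.8).

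**Figure D4:**
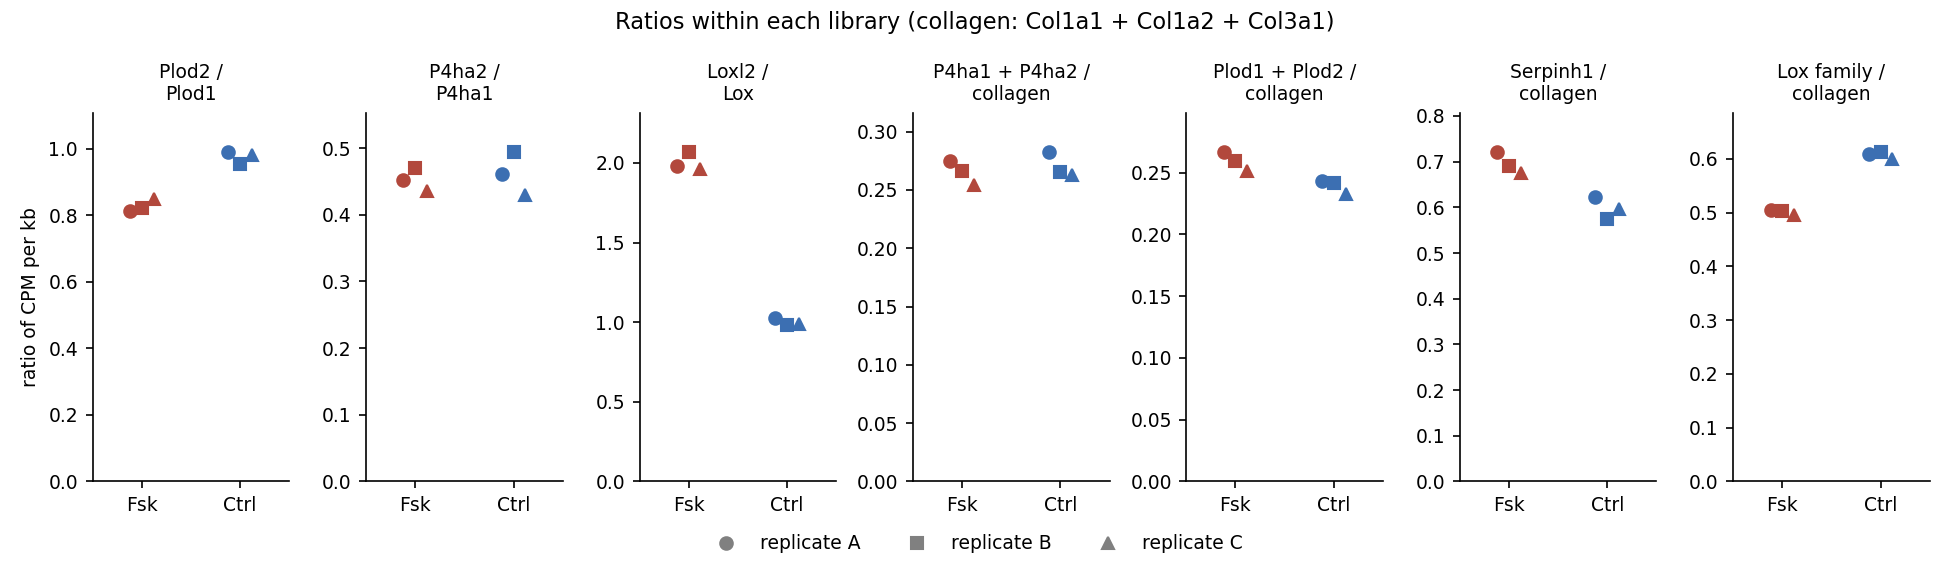
Ratios of CPM per kb within each library, Fsk left of Ctrl, where collagen is the sum of Col1a1, Col1a2 and Col3a1. Loxl2 over Lox is near 2.004 in Fsk and 0.997 in Ctrl, and the prolyl hydroxylase ratios overlap.

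The wider pathway was read from 9 lists, of which 104 genes were tested: 18 rose, 49 fell and 37 did not pass, with a median log2 fold change of -0.13, against 24.8% that rose, 25.1% that fell and a median of 0.01 over all genes tested. Among 13 partners in prolyl and lysyl hydroxylation, 0 rose and 6 fell (median -0.09). P3h2, a prolyl 3-hydroxylase gene, averaged 38.1 ± 1.95 CPM in Fsk and 93.1 ± 1.62 CPM in Ctrl (log2 fold change -1.29, edgeR adjusted p = 2.05e-12), with 1055 of its exon bases overlapped by the antisense model Gm4524. Fkbp10, a collagen prolyl isomerase gene that works with lysyl hydroxylase 2, fell to 256 CPM in Fsk, against 319 CPM in Ctrl (-0.32). Colgalt1, which adds galactose to hydroxylysine, fell by 0.17 and the 3-hydroxylase gene P3h1 by 0.13 on the log2 scale, the call of P3h1 being lost with library size alone as scaling, with library size as a covariate, and without Fsk B, Ctrl B or Ctrl C. P4ha3, a rarer catalytic subunit, had 3.75 ± 1.09 CPM in Fsk and 5.598 ± 1.27 CPM in Ctrl (-0.56, adjusted p = 0.0449), a call lost with DESeq2, with limma, with library size alone, with it as a covariate, and without Fsk A, Fsk B, Ctrl B or Ctrl C. P4hb, the shared beta subunit of prolyl 4-hydroxylase, averaged 779 CPM in Fsk and 773 CPM in Ctrl (adjusted p = 0.864), and Plod3, another lysyl hydroxylase gene, 258 CPM in Fsk and 254 CPM in Ctrl (adjusted p = 0.691). The direction of both flips with library size as a covariate, and that of P4hb also without Fsk A or Ctrl B.

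Of 15 genes of collagen folding and export, 1 rose and 6 fell (median -0.07). In all, 7 of the 15 passed, against 49.9% of all genes tested. Mia2, a receptor gene for large cargo, rose by 0.29 on the log2 scale, while the chaperone gene Hspa5 fell by 0.26, and the COPII coat genes Sec24d and Sec23a fell by 0.22 and by 0.19. Of 8 procollagen processing genes, 2 rose and 4 fell (median -0.14). The N-propeptidase gene Adamts14 fell to 64.2 CPM in Fsk, against 101 CPM in Ctrl, while its relative Adamts2 rose to 250.4 CPM in Fsk, against 179 CPM in Ctrl (edgeR adjusted p = 1.03e-07 and 8.71e-06). Bmp1, a C-propeptidase gene whose product also activates the lysyl oxidase proenzyme, fell to 199.6 CPM in Fsk, against 235 CPM in Ctrl. Its relative Tll1 rose to 44.9 CPM in Fsk, against 32.4 CPM in Ctrl, which no longer passed once library size was a covariate, and the enhancer gene Pcolce fell to 153 CPM in Fsk, against 206 CPM in Ctrl. Its relative Pcolce2 also fell, by 0.33 on the log2 scale, and Adamts3, a relative of Adamts2, did not pass (-0.05, adjusted p = 0.818), both named after their values were seen.

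Of 14 fibrillar collagen and elastic fibre substrates, 2 rose and 9 fell (median -0.26), Col1a1, Col1a2 and Col3a1 among those that fell. Over all genes tested, 24.8% rose and 25.1% fell. Col5a2 fell to 1004 CPM in Fsk, against 1337 CPM in Ctrl, and the elastic fibre genes Fbln5 and Emilin1 fell by 0.41 and by 0.34 on the log2 scale. Of 11 partners of the lysyl oxidases, 3 rose and 5 fell (median -0.19). Atp7a, the pump that loads copper into secreted enzymes such as lysyl oxidase, fell to 87.7 ± 3.35 CPM in Fsk, against 144 ± 1.55 CPM in Ctrl (log2 fold change -0.71, edgeR adjusted p = 4.49e-10). Postn, whose product periostin helps Bmp1 act on lysyl oxidase, fell to 260.0 CPM in Fsk, against 436 CPM in Ctrl (-0.75, adjusted p = 7.56e-11), and the matrix glycoprotein gene Thbs1 fell to 1469 CPM in Fsk, against 2305 CPM in Ctrl (-0.65). Tnxb, the gene of tenascin X, rose to 375 ± 35.5 CPM in Fsk, against 168 ± 11.8 CPM in Ctrl (1.16, adjusted p = 2.3e-11). Of 3 other crosslinkers tested, the transglutaminase gene Tgm2 and the peroxidasin gene Pxdn fell by 0.36 and by 0.25, while Hapln3 had 0.995 CPM in Fsk and 0.975 CPM in Ctrl (adjusted p = 0.955).

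Of 10 tested genes of ascorbate transport and of 2-oxoglutarate and proline metabolism, 6 rose and 0 fell (median 0.45). The shares over all genes tested were 24.8% that rose and 25.1% that fell. Slc23a2, a sodium-coupled ascorbate transporter, rose to 173 ± 6.49 CPM in Fsk, against 99.5 ± 1.20 CPM in Ctrl (log2 fold change 0.80, edgeR adjusted p = 6.7e-11). Slc2a1, which carries glucose and dehydroascorbate, rose to 238 CPM in Fsk, against 170.3 CPM in Ctrl (0.48). The proline synthesis genes Aldh18a1 and Pycr1 rose to 187 and 26.1 CPM in Fsk, against 92.7 and 10.2 CPM in Ctrl (1.01 and 1.35, adjusted p = 7.38e-12 and 2.17e-08). Prodh, which breaks proline down, also rose, to 12.5 CPM in Fsk, against 9.06 CPM in Ctrl (0.45, adjusted p = 0.00784), and was named after its values were seen.

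Of 18 oxygen sensors and hypoxia targets, 2 rose and 10 fell (median -0.22), against 24.8% and 25.1% of all genes tested. Hif1a rose to 382 ± 6.48 CPM in Fsk, against 285 ± 11.02 CPM in Ctrl (log2 fold change 0.43), whereas Epas1, the gene of HIF-2 alpha, fell to 238 ± 19.3 CPM in Fsk, against 430.1 ± 21.7 CPM in Ctrl (-0.85, edgeR adjusted p = 2.71e-10). The peptide hormone gene Adm fell to 116 CPM in Fsk, against 246 CPM in Ctrl (-1.09), and the glycolysis regulator gene Pfkfb3 fell by 0.57 on the log2 scale, while Ndrg1 rose to 40.2 CPM in Fsk, against 20.3 CPM in Ctrl. Of 12 TGF-beta genes, 2 rose and 7 fell (median -0.33). Tgfb3 fell to 123 CPM in Fsk, against 239 CPM in Ctrl (-0.96, adjusted p = 1.33e-10), Tgfb1 fell by 0.41 and the inhibitory Smad7 by 0.56, while the receptor gene Tgfbr1 rose by 0.58.

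**Figure D5:**
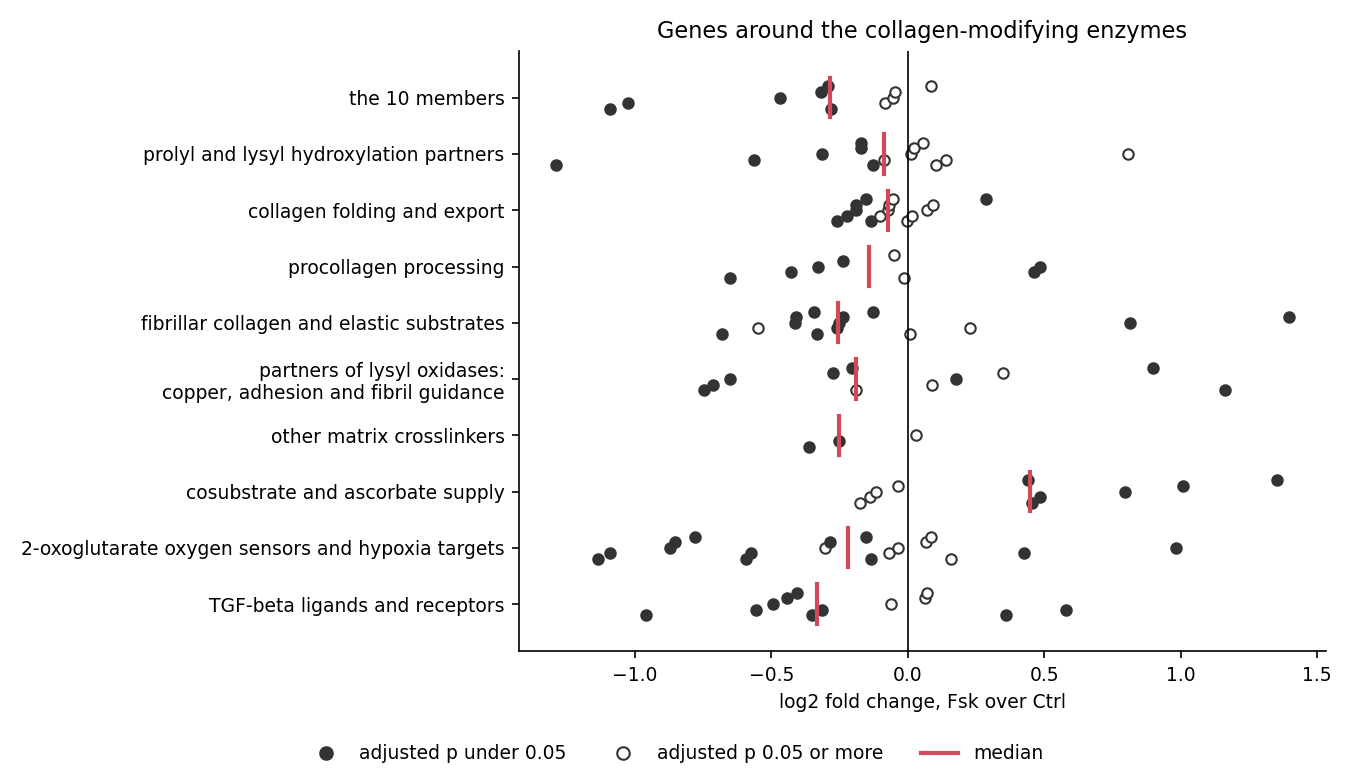
Log2 fold change, Fsk over Ctrl, of the 10 genes (top row) and of each tested gene of the 9 lists, with red bars at the medians. Filled points passed the test, and the ascorbate, cosubstrate and proline genes lie mostly above 0 with a median of 0.45, while the other 8 medians are below 0.

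Genes or models on the opposite strand also overlap exons of Fkbp10, Colgalt1, Plod3, Tgm2, Ndrg1, Tgfb3 and Hif1a. Each of these keeps 81.2% to 94.2% of its 50-base stretches to itself. Their levels are uncertain, as is that of Tnxb, which shares stretches with Tnxa. The partners of Fkbp10, Colgalt1 and Plod3 are the protein-coding genes Nt5c3b, Unc13a and Znhit1. Thbs1, Slc2a1 and Sec23a have smaller overlaps of this kind and keep 98.3% to 99.5% of their stretches. For Plod2 such a model, Gm38391, overlaps 346 exon bases.

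Over the 6 libraries, many genes had a profile like that of Lox: 1322 of 10706 genes with at least 5 CPM had a Pearson's r above 0.95 with it. Nearest were Tfec, a transcription factor gene (r = 0.9997), Prex2, a Rac exchange factor gene (0.9993), and Tbxas1, the thromboxane synthase gene (0.9992). Nearest to Plod2 were Arhgap10, Dapk2 and Sprr2h (r from 0.9992 to 0.9998, 1262 genes above 0.95), and nearest to P4ha1 were Atg12, Ppp2r1a and Pik3c2a (r from 0.998 to 0.9995, 901 genes). For Serpinh1, which did not differ between groups past the threshold, 26 genes were above 0.95, led by Tmem59, Myl6 and Pdia3 (r from 0.9812 to 0.9911), the last a protein disulfide isomerase gene of the endoplasmic reticulum. These likenesses rest on 6 libraries in 2 groups and are descriptions with no test.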

How the data were processed

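Per the labels' protocols, Trizol-lysed cells gave RNA for NEBNext Ultra RNA libraries. The measurements are expected counts per gene, not normalized, in 1 table that the authors deposited. STAR, HOMER and the build mm10 are named in the submitters' processing notes. Their versions and settings were not given in the sources used here. All values are multiples of 0.5 and 31.8% are not whole, so they were rounded to whole numbers. The deposited exon length per gene (a base count, the only other column used) served for levels per kb.

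With edgeR 4.0.16 in R 4.3.3, filterByExpr (minimum count 10, minimum total 15) kept 13357 genes with 99.9% of counts. TMM scaling and the quasi-likelihood test with group as the only term followed, 2-sided, with Benjamini-Hochberg adjustment over all 13357 genes and a threshold of 0.05. CPM are on TMM-scaled library sizes. The SE comes from the quasi-likelihood F statistic. Ratios and shares were tested by exact permutation over the 6 libraries. The fit was tested on simulated data. The table held 0 unused per-sample columns.

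The 10 genes, the 9 lists and the tests were chosen with earlier results of these data known. Named genes are all 10, up to 4 tested genes per list with the smallest adjusted p, 9 fixed ones (Col1a1, Col1a2, Col3a1, Plod3, P4hb, P4ha3, Bmp1, Tgm2 and Hif1a), and the 3 genes most correlated with each of Lox, Plod2, P4ha1 and Serpinh1 among genes of at least 5 CPM that are not predicted models. Listed genes with too few counts to test were Tll2, Col2a1, Dpt, Tgm1, F13a1, Hapln1, Slc23a1 and Gulo, and Pxdnl matched no row. Stretches of 50 bases of each gene's GENCODE exons were looked up in all other genes, on the build the table uses. Protein sequences were not used here. Alternatives used DESeq2 1.42.0 and limma 3.58.1 (voom), other scalings, no filter, another rounding, the replicate letter as a block, library size as a covariate, a test against 1.5-fold, and each library left out.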

Additional observations from a re-analysis of the deposited data

How the results depend on the processing

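Lox and Loxl4 kept their direction and their call in all 15 alternatives, with log2 fold changes of -1.17 to -1.04 and -1.04 to -0.95. P4ha1, P4ha2, Plod2 and Loxl3 kept theirs in all but the test against 1.5-fold. That test left 2 of the 10 genes (2 that fell), 13 of the listed genes and 1000 of all genes. With library size as a covariate 4297 of all genes passed and 8 of the 10 genes, now with Serpinh1 (-0.14, adjusted p = 0.0257) and Loxl2 (-0.15, adjusted p = 0.0256), while Plod3 (-0.021) and P4hb (-0.094) changed sign; the cause was not tested, and depth differs between the groups. Leaving out 1 library gave 6 to 7 of the 10 genes, 6 that fell each time, 60 to 73 listed genes and 5640 to 6800 genes in all. P4hb ranged from -0.014 to 0.045, with -0.012 without Fsk A and -0.014 without Ctrl B, and Hapln3 ranged from -0.27 to 0.48, with -0.27 without Fsk B, -0.18 without Ctrl A and -0.09 without Ctrl C. The Fsk minus Ctrl difference in the log2 ratio of P4ha2 to P4ha1 ranged from -0.076 to 0.024 (0.0019 without Fsk C, 0.024 without Ctrl B). For P4ha1 plus P4ha2 to collagen this difference ranged from -0.052 to 0.0059 (0.0037 without Fsk C, 0.0059 without Ctrl A). Of the 42 other named genes, 630 values gave 574 on the same side, 49 no longer past the threshold (28 of them against 1.5-fold) and 7 of the other sign. Whether the replicate letters pair the libraries is not in the labels. Deviations from the group means correlated at 0.0272, 0.0222 and 0.0358 for A, B and C, all under the 0.1 set for calling them paired. Each library still correlated best with its own letter, a hint from the data and not the design, so these values do not settle the pairing. With the replicate block 7 of the 10 genes passed (Loxl2 added, adjusted p = 0.0384), 68 listed genes and 6675 in all. For ratios and shares no blocked test was run. Loxl1, with the lowest counts of the 10, has the widest interval.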

Other observations

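The genes named here fall outside the naming rule and were chosen after their values were seen. Among the substrates, the minor fibrillar chains Col11a2 and Col5a3 rose, to 7.87 and 6.93 CPM in Fsk, against 2.93 and 3.94 CPM in Ctrl (log2 fold changes 1.40 and 0.81, edgeR adjusted p = 0.000105 and 0.000455). Among the copper genes, Atp7b, a relative of Atp7a best known in hepatocytes, rose to 5.94 CPM in Fsk, against 3.17 CPM in Ctrl (0.90, adjusted p = 0.00124), while the copper importer gene Slc31a1 fell to 120 CPM in Fsk, against 145 CPM in Ctrl (-0.28). Among the TGF-beta genes, Smad3 rose to 147 CPM in Fsk, against 115 CPM in Ctrl (0.36), and Smad2 fell to 72.3 CPM in Fsk, against 90.1 CPM in Ctrl (-0.32).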
